A study of Mus musculus with 6 samples.

Results

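Foxa2 and 7 genes that encode secreted proteins (Spink1, Prss28, Prss29, Cxcl15, Wfdc3, Ttr and Ovgp1) were followed on each array of whole uterus at 3.5 dpc (days post coitum). The genes were chosen on their intensities in the same 6 arrays, in the contrast between the genotypes compared here, so that contrast is given for them as a description, with no test. Every probe set that the platform annotation assigned to 1 of these genes alone was taken, including those under older symbols, which gave 15 probe sets for 8 genes, of 45037 probe sets and 18193 genes in the table. RNA came from female Arid1a d/d mice (Pgr cre/+ Arid1a f/f) and from Arid1a f/f females, with 3 arrays per genotype, after mating with C57BL/6 males. The labels and methods do not state the age of the females used for the arrays. Both genotypes carried the floxed Arid1a allele. In Arid1a d/d mice, Cre made from the Pgr locus deletes it in PGR-expressing cells, and the remaining cells of the organ keep it. No array came from mice with Cre alone, so loss of Arid1a and the altered Pgr locus cannot be told apart.

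Uterine glands are tubes of epithelium that grow down from the lining of the lumen into the stroma and secrete proteins into the lumen, where the embryo lies before it implants. In mice, FOXA2 is a forkhead transcription factor found in the glandular epithelium of the uterus, where gland formation and the release of the implantation factor LIF depend on it. The products of the other genes include inhibitors of proteases, proteases, a chemokine, a carrier of hormone and vitamin, and a glycoprotein of oviduct fluid.

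Arid1a, the DNA-binding component of a chromatin remodeler of the SWI/SNF type, was read first as a check on the labels. Its brighter probe set had intensities of 51.90, 51.91 and 58.15 in Arid1a d/d mice, against 83.58, 86.85 and 103.90 in Arid1a f/f mice, with no overlap (log2 fold change -0.76, adjusted p = 0.0120, limma). Whether its probes lie in the deleted part is not known here. The median intensity per array was 3.05 to 3.17 in Arid1a d/d mice and 3.10 to 3.15 in Arid1a f/f mice, and the lowest correlation of any array with another of its genotype was 0.990. The table has no detection calls, so intensities below the median of all values, 3.12, cannot be told from background, and folds against such values are uncertain in size. Pgr was well above that level on every array (269 to 320 in Arid1a d/d mice and 216 to 297 in Arid1a f/f mice), while Foxj1, which drives the formation of motile cilia in the oviduct, was below it on all 6. In whole tissue, fewer gland cells and less RNA per gland cell cannot be told apart. The labels do not say whether the samples came from separate mice, so p-values measure only the spread between these samples.

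Prss28, Prss29 and Cxcl15 were chosen to show sequence, because the first pair moved together from array to array and all 3 carried a motif searched for. These are the 250 bases before the RefSeq start site (build GRCm38.p6, plus strand) at chr17:25308396-25308645 for Prss28, chr17:25318404-25318653 for Prss29 and chr5:90794284-90794533 for Cxcl15. In the Prss28 and Prss29 sequences capitals mark bases that were identical in the best local alignment of the pair, and in the Cxcl15 sequence they mark the forkhead motif TATTTAC and the TATA motif TATAAA.
Prss28: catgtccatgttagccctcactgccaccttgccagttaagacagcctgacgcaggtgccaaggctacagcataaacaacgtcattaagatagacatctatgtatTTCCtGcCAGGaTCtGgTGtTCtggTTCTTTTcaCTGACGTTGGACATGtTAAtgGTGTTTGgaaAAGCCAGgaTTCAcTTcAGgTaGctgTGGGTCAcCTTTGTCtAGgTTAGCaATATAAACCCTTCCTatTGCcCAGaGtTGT
Prss29: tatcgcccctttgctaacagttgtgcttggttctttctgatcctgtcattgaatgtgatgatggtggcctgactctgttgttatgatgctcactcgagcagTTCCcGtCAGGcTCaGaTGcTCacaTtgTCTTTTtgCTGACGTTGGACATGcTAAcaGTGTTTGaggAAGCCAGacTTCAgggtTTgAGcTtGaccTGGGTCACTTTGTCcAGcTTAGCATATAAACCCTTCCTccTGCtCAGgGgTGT
Cxcl15: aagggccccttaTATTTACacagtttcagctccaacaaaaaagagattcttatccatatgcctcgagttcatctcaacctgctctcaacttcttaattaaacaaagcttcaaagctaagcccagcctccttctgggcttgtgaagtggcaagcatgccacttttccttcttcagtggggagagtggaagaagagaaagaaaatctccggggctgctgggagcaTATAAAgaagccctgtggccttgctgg

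Prss28 and Prss29 lie next to each other on chromosome 17. Their alignment ran from 146 bases before the start of Prss28 and 149 bases before that of Prss29 up to both start sites, with 111 identical bases in 151 columns (73.5%). Its score was 64.5, against 8.0 to 13.0 for the other 14 of 15 pairs among the 6 genes that matched in the RefSeq promoter table. TATAAA began 29 bases before the start in both, and 27 bases before the start in Cxcl15. The 6 genes have 8 promoters in that table. In the last 40 bases before the start, this motif was found in 3 of the 8 and in 3.03% of 32851 promoters. Those of Prss28 and Prss29, which align there, are not separate occurrences. In the whole 250 bases it was found in 4 of the 8 and in 12.4% of promoters. The fourth was that of Foxa2, where it lay on the opposite strand, 208 bases before the start. These shares count matches on either strand. Forkhead motifs were searched on both strands in 4 spellings, namely TGTTTAC and then TATTTAC as well as TGTTTGC and lastly TATTTGC. They were found in 1 of the 8 promoters, that of Cxcl15, at 238 bases before the start, and in 11.9% of all promoters. A match of letters is a description and does not show that a factor binds there. Spink1 and Ttr are named only.

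Foxa2 had intensities of 5.30, 4.43 and 4.39 in Arid1a d/d mice, against 7.04, 8.54 and 15.27 in Arid1a f/f mice. The genotypes did not overlap, although the lowest Arid1a f/f array was only 1.33 times the highest Arid1a d/d array, and the third Arid1a f/f array stood well above the others of its genotype. The means were 4.71 ± 0.514 in Arid1a d/d mice and 10.3 ± 4.38 in Arid1a f/f mice (SD, n = 3 each), a log2 fold change of -1.05 (standard error 0.25), or 2.07-fold lower. This was the smallest log2 fold change of the 8. Without the third Arid1a f/f array the log2 fold change was -0.73, and without the first it was -1.28.

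Spink1 encodes a Kazal-type inhibitor of trypsin, known from the pancreas and from seminal fluid in mice, where it was long called Spink3. Its intensities were 2.51, 2.88 and 3.52 in Arid1a d/d mice, against 104.41, 365.13 and 329.61 in Arid1a f/f mice. This was the widest separation of the 8 genes: the lowest Arid1a f/f array was 29.7 times the highest Arid1a d/d array, and 2 of the 3 Arid1a d/d arrays lay below the median of the table. The means were 2.97 ± 0.511 in Arid1a d/d mice and 266 ± 141 in Arid1a f/f mice (SD, n = 3 each), a log2 fold change of -6.30 (standard error 0.41). With a floor, every intensity below 3.12 being raised to that value, it was -6.16.

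Prss28 and Prss29 encode tryptase-related serine proteases of the uterine glands, known as implantation serine proteinases. Prss28 had intensities of 1.98, 2.12 and 1.82 in Arid1a d/d mice, against 2.46, 111.02 and 8.90 in Arid1a f/f mice. The second Arid1a f/f array was by far the brightest, and the third was well below it. The first Arid1a f/f array was below the table median, as were all 3 Arid1a d/d arrays. The log2 fold change was -2.77 (standard error 1.10), or -2.22 with values below 3.12 raised to it. As a ratio of arithmetic means, which the brightest array dominates, it was -4.37.

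Prss29 had the same order of Arid1a f/f arrays. Its brightest probe set had 2.74, 2.52 and 2.38 in Arid1a d/d mice, against 2.75, 212.25 and 19.40 in Arid1a f/f mice, a log2 fold change of -3.14 (standard error 1.23), or -4.94 as a ratio of arithmetic means. The lowest Arid1a f/f array was 1.00 times the highest Arid1a d/d array, so the genotypes met at the level of background. A second probe set gave 2.41, 2.13 and 2.14 in Arid1a d/d mice and 3.46, 155.48 and 11.46 in Arid1a f/f mice. The dimmest probe set overlapped, with 3.18, 3.33 and 3.08 in Arid1a d/d mice and 2.84, 12.24 and 3.39 in Arid1a f/f mice. On all 3 probe sets the second Arid1a f/f array was the highest. Without that array the log2 fold change was -1.25 for Prss28 and -1.52 for Prss29, and without the first Arid1a f/f array it was -4.00 for Prss28 and -4.66 for Prss29. The Prss29 reading at its brightest probe set can detect several transcripts, and whether it also reads Prss28 was not tested.

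Cxcl15 encodes lungkine, a CXC chemokine of mouse lung and glandular epithelium. Its brighter probe set had 7.34, 5.11 and 7.09 in Arid1a d/d mice, against 35.82, 28.43 and 52.96 in Arid1a f/f mice. The lowest Arid1a f/f array was 3.87 times the highest Arid1a d/d array, and every value lay above the table median. The means were 6.51 ± 1.22 in Arid1a d/d mice and 39.1 ± 12.6 in Arid1a f/f mice (SD, n = 3 each), and the log2 fold change was -2.55 (standard error 0.23). The other probe set gave 3.88, 2.95 and 3.89 in Arid1a d/d mice, against 12.71, 10.25 and 22.29 in Arid1a f/f mice, and ordered the Arid1a f/f arrays alike.

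Wfdc3 encodes a protein with whey acidic protein (WAP) domains, a fold shared with inhibitors of serine proteases. Its brighter probe set had 4.09, 3.06 and 3.42 in Arid1a d/d mice, against 11.54, 9.82 and 12.84 in Arid1a f/f mice. It was the steadiest of the 8 genes within Arid1a f/f mice. The means were 3.52 ± 0.523 in Arid1a d/d mice and 11.4 ± 1.51 in Arid1a f/f mice (SD, n = 3 each), and the log2 fold change was -1.70 (standard error 0.14). As the mean of both probe sets it was -0.87. The other probe set lay below the table median on all 6 arrays, 2.30 to 2.61 in Arid1a d/d mice and 2.34 to 2.67 in Arid1a f/f mice, and overlapped.

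Ttr encodes transthyretin, which carries thyroxine and the retinol-binding protein in blood and cerebrospinal fluid. Its brightest probe set had 2.26, 2.06 and 1.44 in Arid1a d/d mice, against 14.00, 6.95 and 27.04 in Arid1a f/f mice. All 3 Arid1a d/d arrays were below the table median and no Arid1a f/f array was. The log2 fold change was -2.87 (standard error 0.41), or -2.15 with values below 3.12 raised to it. The other 3 probe sets also did not overlap, with smaller log2 fold changes of -1.73, -1.17 and -0.53, and all 4 can detect several transcripts. As the mean of the 4 it was -1.57.

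Ovgp1 encodes oviductin, a glycoprotein of oviduct fluid that belongs to the chitinase family and is known to lack the enzyme's activity. Its probe set had 3.51, 2.48 and 5.66 in Arid1a d/d mice, against 53.65, 11.86 and 19.15 in Arid1a f/f mice. The lowest Arid1a f/f array was 2.10 times the highest Arid1a d/d array, and here the first Arid1a f/f array was the brightest, not the second or the third. The means were 3.88 ± 1.62 in Arid1a d/d mice and 28.2 ± 22.3 in Arid1a f/f mice (SD, n = 3 each), and the log2 fold change was -2.65 (standard error 0.50). Without the first Arid1a f/f array it was -2.04.

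**Figure D1:**
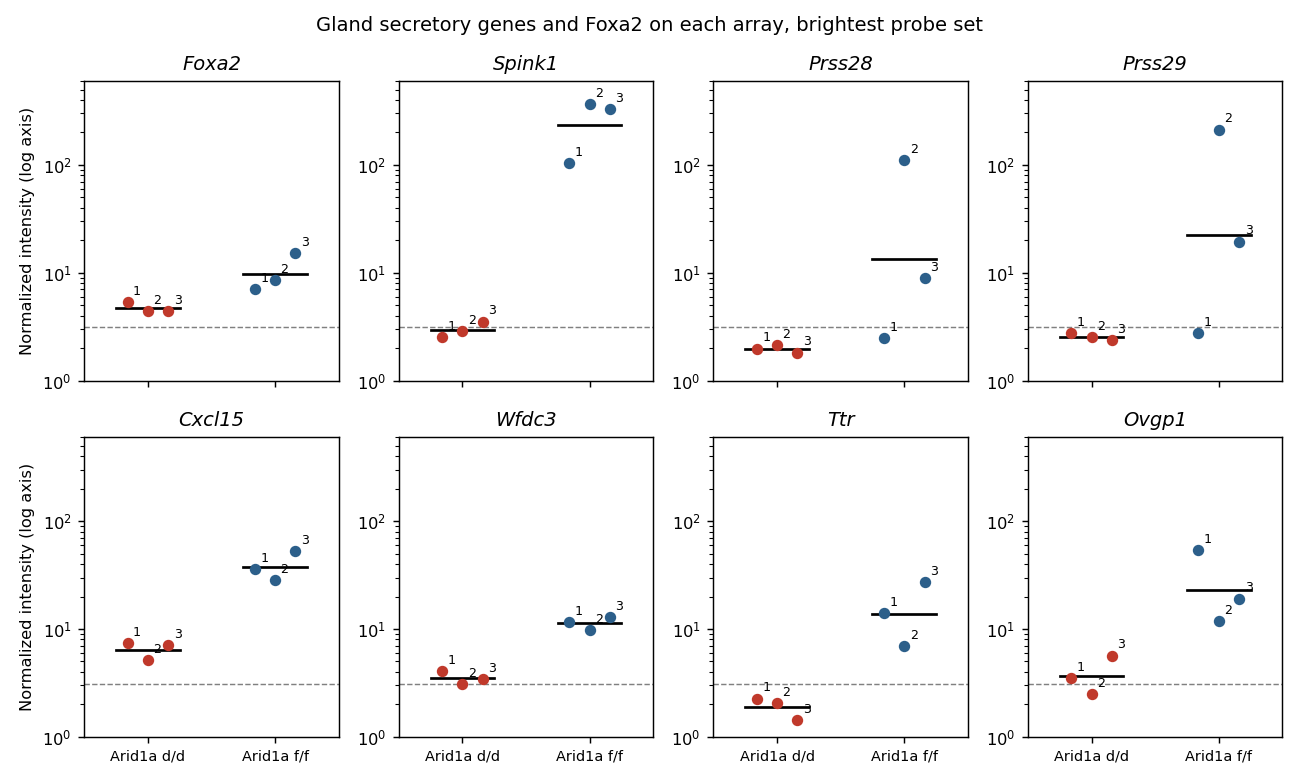
Normalized intensity (log axis) of the brightest probe set of each gene on every array, with Arid1a d/d left and Arid1a f/f right. Numbers are replicate numbers, bars are geometric means, and the dashed line is the median of all intensities, 3.12. Spink1 is separated widest, whereas the first Arid1a f/f array sits at the Arid1a d/d level for Prss28 and Prss29.

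Over the 15 probe sets, 13 were lower on all 3 Arid1a d/d arrays than on any Arid1a f/f array, and 2 overlapped. The background for that count was 11.5% of all probe sets that were lower without overlap, and 11.0% that were higher. In the limma fit over the whole table (adjusted p under 0.05), 2.35% of probe sets were lower in Arid1a d/d mice, 2.42% were higher and 4.77% changed in either direction. Of the 15 probe sets, 9 were among those lower and none among those higher. By gene, with the brightest probe set for each, 5 of the 8 were among the lower ones (Spink1, Cxcl15, Wfdc3, Ttr and Ovgp1), against 4.07% of all genes lower, 3.37% higher and 7.44% in either direction. Foxa2, Prss28 and Prss29 were not. Because this contrast chose the genes, nothing is read from these counts. The median log2 fold change of the 8 genes was -2.71, and that of all genes was -0.02.

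**Figure D2:**
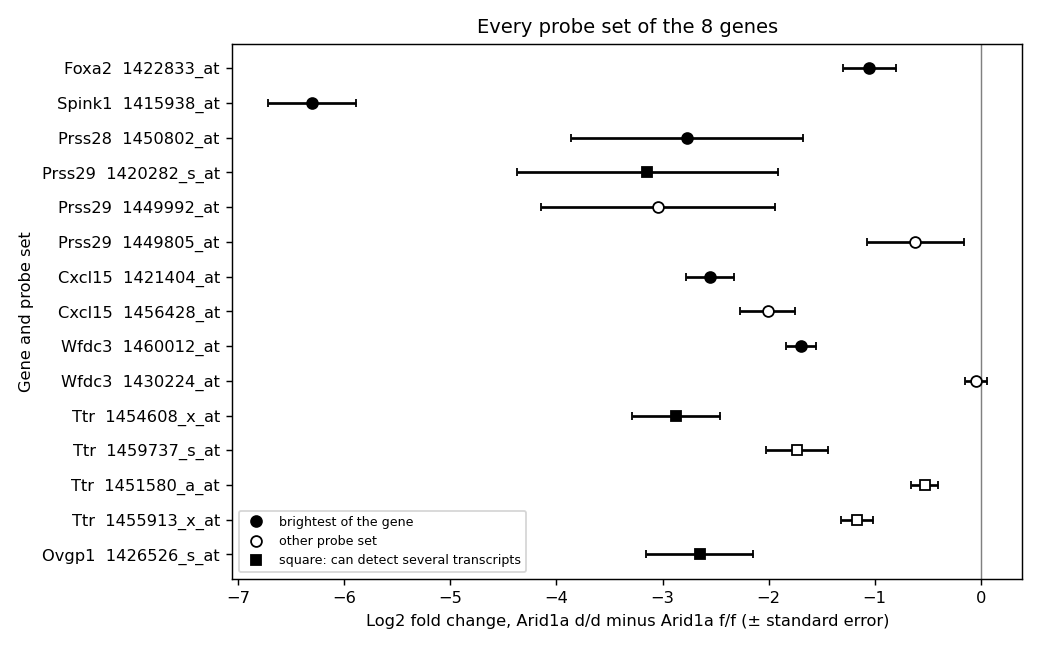
Log2 fold change (Arid1a d/d minus Arid1a f/f) of each of the 15 probe sets, with bars of 1 standard error of the fit. Filled marks are the brightest probe set of a gene, and squares mark those able to read more than 1 transcript. The second Wfdc3 probe set sits at -0.05, and the 4 Ttr probe sets spread from -2.87 to -0.53.

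The 8 genes varied more within Arid1a f/f mice than within Arid1a d/d mice, except Wfdc3. The range over the 3 Arid1a d/d arrays was 0.20 to 1.19 on the log2 scale, against 0.39 to 6.27 over the 3 Arid1a f/f arrays. Among 12056 genes with a mean above the table median, the range over the Arid1a f/f arrays of Prss29 ranked 1 and that of Prss28 ranked 2. The ranks were 17 for Ovgp1, 30 for Ttr, 38 for Spink1, 131 for Foxa2, 291 for Cxcl15 and 3017 for Wfdc3. Spink1, Prss28, Prss29 and Ttr had Arid1a d/d means below the table median. They were included only through the Arid1a f/f arrays whose range was ranked, so the ranks are a description only. The median range of the 12056 genes was 0.29 in Arid1a d/d mice and 0.25 in Arid1a f/f mice. The low Arid1a d/d values of several genes lie at background, where a range can hardly be seen.

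The genes did not share one bright Arid1a f/f array. Foxa2, Cxcl15, Wfdc3 and Ttr were highest on the third, Spink1, Prss28 and Prss29 on the second, and Ovgp1 on the first. Foxa2, Spink1, Prss28 and Prss29 were lowest on the first, and the other 4 genes were lowest on the second. As a description over the same 6 arrays, whose values also hold the difference between genotypes, Pearson's r was 0.995 for Prss28 with Prss29, 0.994 for Cxcl15 with Wfdc3 and 0.266 for Prss28 with Ovgp1. Summed over the 8 genes, intensity was 24.7 to 29.7 in Arid1a d/d mice and 232 to 754 in Arid1a f/f mice, with Spink1 alone at 104.41 to 365.13 in Arid1a f/f mice.

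**Figure D3:**
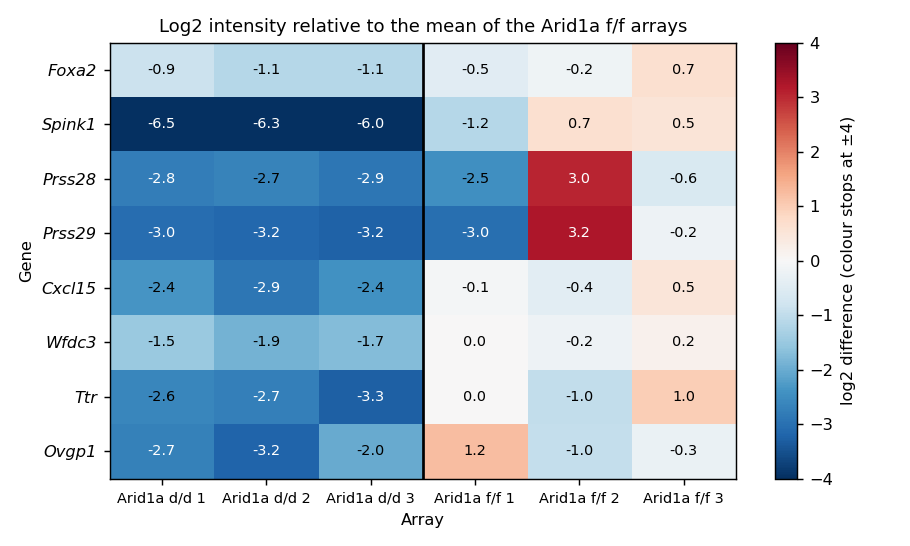
Log2 intensity of each gene on each array minus the mean of the 3 Arid1a f/f arrays, with Arid1a d/d columns left of Arid1a f/f columns. Rows are genes, the colour scale stops at 4 in either direction, and the second Arid1a f/f array stands 3.05 above that mean for Prss28 and 3.24 above it for Prss29, whereas the first lies close to the Arid1a d/d arrays for both.

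Other genes also stood apart on single Arid1a f/f arrays, and these were picked after their values were seen. Aif1 and Adgre1, known from macrophages, were brightest on the third array, where Foxa2, Cxcl15, Wfdc3 and Ttr were highest. Aif1 had 7.14, 7.11 and 7.76 in Arid1a d/d mice, against 6.76, 9.41 and 42.05 in Arid1a f/f mice. Adgre1 had 16.57, 12.51 and 16.58 in Arid1a d/d mice, against 16.73, 18.79 and 78.36 in Arid1a f/f mice. Nr4a1, an immediate early gene, was brightest on the second array, where Prss28 and Prss29 were highest: it had 9.86, 11.31 and 9.94 in Arid1a d/d mice, against 13.90, 68.25 and 28.92 in Arid1a f/f mice. What part these arrays' differences have in the values of the 8 genes was not tested.

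The genes whose pattern was most like that of Foxa2, by Pearson's r over the 6 arrays among 12048 genes above the table median, were Lif (0.993), Hipk2 (0.991), Cdc14a (0.990), Rnf103 (0.990) and Rac2 (0.989). Lif encodes leukemia inhibitory factor, which uterine glands release before implantation. It had 4.13, 3.86 and 3.53 in Arid1a d/d mice, against 4.81, 5.19 and 7.70 in Arid1a f/f mice. As with Foxa2, the genotypes did not overlap and the third Arid1a f/f array was the highest (log2 fold change -0.59, adjusted p = 0.0983, limma). Most like the mean of the 8 genes were Gimap1 (1.00), Afap1l1 (0.996), Scarb1 (0.995), Itgax (0.994) and Tnfrsf1a (0.993). Gimap1, a GTPase gene of lymphoid cells, had 6.81, 6.67 and 6.81 in Arid1a d/d mice, against 10.56, 13.89 and 13.21 in Arid1a f/f mice. With 6 arrays and a difference between genotypes in most of these genes, such likeness is a description only.

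Most genes that share a family with the 8 were not past the test. Neither were most genes in the table, of which 7.44% were past it. Some family genes lay below the table median on all 6 arrays, where a change can hardly be seen. This held for 3 of 6 Kazal inhibitor, 19 of 35 serine protease and 2 of 12 WAP domain genes. It also held for 8 of 20 CXC, 1 of 10 retinol and thyroid hormone and 4 of 7 chitinase genes, and for 5013 of all 18193 genes. Of 6 measured genes of Kazal inhibitors besides Spink1, none was past the test and none at an unadjusted p under 0.05 in either direction, and their median log2 fold change was 0.10. Spink12 had 2.34, 75.11 and 2.01 in Arid1a d/d mice, against 2.17, 1.88 and 2.04 in Arid1a f/f mice, so only the second Arid1a d/d array was bright. Spink5 was below the table median on all 6 arrays. Of 35 other serine protease genes, 2 were higher and 1 lower, with a median of 0.01. Tmprss4 (log2 fold change 1.95, adjusted p = 0.0223, limma) and Prss8 (0.96, adjusted p = 0.0126, limma), membrane-bound proteases of epithelia, rose, and Prss12, the neuronal protease motopsin, fell (-0.96, adjusted p = 0.0202, limma). Tmprss4 lost the call without any 1 of the Arid1a f/f arrays, and Prss12 without the second or the third of them, with values over all 6 omissions of 1.43 to 2.23 for Tmprss4 and -1.10 to -0.77 for Prss12. Tmprss4 lost it as well with values below 3.12 raised to 3.12 (adjusted p = 0.0599, limma).

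Of 12 WAP domain genes besides Wfdc3, 2 were higher and none lower, with a median of -0.03. Wfdc15b had 44.01, 50.37 and 47.23 in Arid1a d/d mice, against 24.52, 20.17 and 28.40 in Arid1a f/f mice (log2 fold change 0.97, adjusted p = 0.00879, limma). Wfdc2, a WAP protein of reproductive and airway epithelium, was the other (1.04, adjusted p = 0.0188, limma). Both moved opposite to Wfdc3. The Wfdc2 call was lost without the third Arid1a d/d array or without any 1 of the Arid1a f/f arrays, and its log2 fold change ran from 0.84 to 1.23 over the 6 omissions.

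Of 20 other CXC chemokine and receptor genes, only Cxcl12, a chemokine of stromal cells, changed. It had 135.97, 111.32 and 143.70 in Arid1a d/d mice, against 197.07, 316.70 and 262.04 in Arid1a f/f mice (log2 fold change -0.97, adjusted p = 0.0210, limma). Its call was lost without the second Arid1a d/d array and without the second or the third Arid1a f/f array, with values of -1.15 to -0.81 over the 6 omissions, and as the mean of its probe sets (-0.46, adjusted p = 0.0619, limma). The median of the list was -0.03.

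Of 10 genes that carry retinol and thyroid hormone or act on them, Lrp2 fell and Dio2 rose, and the median was -0.12. Lrp2, the endocytic receptor megalin, had 4.49, 3.07 and 16.23 in Arid1a d/d mice, against 63.84, 45.51 and 61.98 in Arid1a f/f mice (log2 fold change -3.22, adjusted p = 0.0129, limma). Dio2, the deiodinase that activates thyroxine, had 465.24, 524.74 and 413.53 in Arid1a d/d mice, against 106.11, 281.01 and 85.73 in Arid1a f/f mice (1.77, adjusted p = 0.0338, limma). The Lrp2 call was lost without any 1 of the Arid1a f/f arrays (-3.93 to -2.73 over the 6 omissions). Among the 6 omissions, the Dio2 call held for the second Arid1a f/f array alone (1.43 to 2.29). With the trend and robust options of eBayes both calls were lost (adjusted p = 0.0613 for Lrp2 and 0.141 for Dio2, limma), and Dio2 was lost with values below 3.12 raised to it too (adjusted p = 0.0771, limma). Retinol-binding protein Rbp4 had 7.91 to 18.24 in Arid1a d/d mice and 14.17 to 16.07 in Arid1a f/f mice. Of 7 genes of the chitinase family besides Ovgp1, none was past the test or at an unadjusted p under 0.05, with a median of -0.05. Among them Chit1 had a log2 fold change of -0.30 and Chil3 of 0.22.

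Genes of gland formation and of epithelial progenitors went in both directions. Of 25 measured, 3 were higher, 1 was lower and the median was -0.06. Lgr5, a receptor for R-spondins known from progenitor cells, had 6.26, 8.94 and 5.45 in Arid1a d/d mice, against 2.89, 2.57 and 2.56 in Arid1a f/f mice (log2 fold change 1.33, adjusted p = 0.00648, limma). Wnt5a (0.90, adjusted p = 0.00958, limma) and Wnt7a (1.07, adjusted p = 0.0339, limma), WNT ligands needed for the female tract, also rose, and the R-spondin gene Rspo1 fell (-0.60, adjusted p = 0.0303, limma). Lgr5 and Wnt5a were past the test without any 1 array. All Arid1a f/f values of Lgr5 lay below the table median, so the size of its change is uncertain. Rspo1 was in no such fit (-0.66 to -0.49), and Wnt7a only without the second or the third Arid1a d/d array (0.79 to 1.27). Wnt7a also lost its call with the floor (adjusted p = 0.0713, limma) and as the mean of its probe sets (0.27, adjusted p = 0.155, limma). The forkhead genes Foxa1 and Foxa3 lay below the table median on all 6 arrays. Sox17, a regulator of gland development, had 269.94, 241.66 and 329.54 in Arid1a d/d mice, against 369.03, 349.23 and 402.68 in Arid1a f/f mice, and was not past the test (-0.42, adjusted p = 0.116, limma).

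Other products that the uterine epithelium secretes did not share one direction either. Of 11 measured, 3 were higher, 1 was lower and the median was -0.03. Prap1, an acidic protein of uterus and gut, had 186.37, 141.90 and 211.33 in Arid1a d/d mice, against 4.83, 9.43 and 3.46 in Arid1a f/f mice. Ltf, the estrogen-induced iron-binding protein lactoferrin, had 156.88, 111.06 and 66.15 in Arid1a d/d mice, against 15.31, 4.08 and 6.82 in Arid1a f/f mice. Pla2g10, a secreted phospholipase, had 10.32, 6.29 and 16.79 in Arid1a d/d mice, against 57.73, 38.71 and 71.95 in Arid1a f/f mice (log2 fold change -2.40, adjusted p = 0.00897, limma), so it stood low on the same arrays as the 8 genes. Wfdc2, given above, was the other that rose. Among 13 hormone receptors and regulators of the epithelium, only Esr1, the estrogen receptor, was past the test (-0.45, adjusted p = 0.0441, limma), and its call was lost without any 1 array (-0.51 to -0.39) and with median centring (adjusted p = 0.0539, limma). Averaged over its probe sets, its direction turned, at 0.087.

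**Figure D4:**
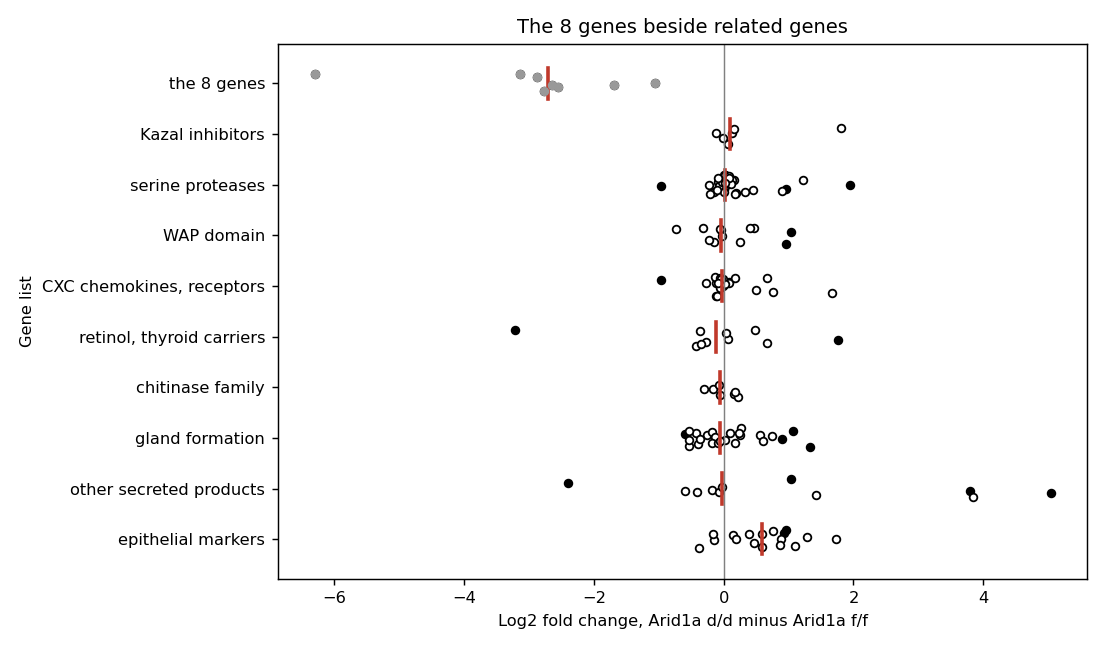
Log2 fold change (Arid1a d/d minus Arid1a f/f) of the 8 genes (grey, not tested), of genes related to them by family or pathway, and of epithelial markers. Filled black points are past the limma fit at an adjusted p under 0.05, open points are not, and red bars are list medians, from -2.71 for the 8 genes to 0.59 for the epithelial markers.

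No marker of epithelium was past the test and lower. Of 17 measured, Cdh1 and Prss8 were past the test and higher, 11 were higher at an unadjusted p under 0.05 (11.4% of all genes were), and the median log2 fold change was 0.59. Cdh1, the adhesion molecule E-cadherin, had 171.11, 239.95 and 225.30 in Arid1a d/d mice, against 109.54, 103.31 and 119.84 in Arid1a f/f mice (log2 fold change 0.92, adjusted p = 0.0119, limma), and only leaving out the second Arid1a f/f array ended its call, with values of 0.83 to 1.07 over the 6 omissions. The log2 fold change was positive for 14 of the 17 and negative for Cldn3 (-0.39), Cldn4 (-0.16) and Ehf (-0.16). The summed intensity of the markers was 1540, 2889 and 2002 in Arid1a d/d mice, against 1534, 1528 and 1460 in Arid1a f/f mice. The second Arid1a d/d array thus stood highest, and the first was close to the Arid1a f/f arrays. Taken relative to the mean of these markers, the log2 difference was -1.65 for Foxa2, -6.90 for Spink1, -3.37 for Prss28 and -3.74 for Prss29. It was -3.15 for Cxcl15, -2.29 for Wfdc3, -3.47 for Ttr and -3.25 for Ovgp1. Because the mean of the markers was higher in Arid1a d/d mice, this step lowered every gene alike. That all 8 stayed lower was therefore fixed in advance, and nothing is read from it.

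Of 10 stromal markers, 3 (Dcn, Vim and Thy1) were lower and past the test, with a median of -0.44, and the list summed to 7902 to 9450 in Arid1a d/d mice and 10506 to 11684 in Arid1a f/f mice. Of 10 smooth muscle markers, Des was lower, with a median of -0.21 and sums of 7318 to 8937 in Arid1a d/d mice and 8180 to 9380 in Arid1a f/f mice. Each of these 4 calls was lost in 2 to 5 of the 6 fits that left out 1 array, with log2 fold changes from -1.22 to -0.54 in them. All 4 were lost without the second Arid1a f/f array, those of Dcn, Thy1 and Des without the second Arid1a d/d array, those of Vim, Thy1 and Des without the first Arid1a f/f array, those of Vim and Des without the third Arid1a f/f array, and that of Des also without the third Arid1a d/d array. The Des call was lost as the mean of its probe sets too (-0.15, adjusted p = 0.379, limma). What part the mix of tissues has in the values of the 8 genes was not tested.

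Markers of other organs in which these genes are known to be active were read too, and none was past the test. Of 8 pancreatic acinar markers, 5 were below the table median on all 6 arrays, with summed intensities of 27.1 to 30.9 in Arid1a d/d mice and 30.2 to 33.0 in Arid1a f/f mice. The proteases Cpa1 and Cela2a were among those below the median, while Cela1 had 8.42 to 12.49 in Arid1a d/d mice and 9.25 to 13.59 in Arid1a f/f mice. Ctrb1 had the largest log2 fold change of that list (-0.31, adjusted p = 0.131, limma). It was lower without overlap, with 3.23, 2.88 and 2.93 in Arid1a d/d mice, against 3.91, 3.52 and 3.75 in Arid1a f/f mice. Of 8 hepatocyte and visceral endoderm markers, 7, including Alb and Afp, were below the table median on all 6 arrays, with sums of 18.6 to 20.1 in Arid1a d/d mice and 18.8 to 20.1 in Arid1a f/f mice. Of 13 markers of oviduct and ciliated cells, 7 were below it on all 6 arrays, with sums of 138 to 155 in Arid1a d/d mice and 128 to 162 in Arid1a f/f mice. Above it on every array were Tppp3 (96.45 to 113.38 in Arid1a d/d mice and 91.93 to 122.81 in Arid1a f/f mice) and Pax8 (10.58 to 14.35 in Arid1a d/d mice and 7.07 to 12.59 in Arid1a f/f mice). Of 9 mast cell markers, 3 were below it on all 6 arrays, and Hdc, the enzyme that makes histamine, was far above it (142 to 302 in Arid1a d/d mice and 233 to 323 in Arid1a f/f mice). The mast cell tryptase gene Tpsb2, which adjoins Prss29, had 2.38 to 3.26 in Arid1a d/d mice and 2.44 to 2.64 in Arid1a f/f mice. Summed mast cell markers were 169 to 330 in Arid1a d/d mice and 267 to 354 in Arid1a f/f mice. Hdc alone made most of that sum on every array. The receptor gene Kit had the largest log2 fold change of the mast cell list (-1.28, adjusted p = 0.0655, limma). Kit passed it as the mean of its probe sets (-0.71, adjusted p = 0.0426, limma) and without the first Arid1a f/f array (-1.62). None of 7 reference genes was past the test, and their median was 0.09.

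Genes next to the 8 on their chromosomes were compared too. Of 28 neighbours other than the 8 genes, within 2 named protein-coding genes on each side, 22 were measured, of which 2 were higher, none lower and 6 had an unadjusted p under 0.05 (limma), a p that 24.9% of all genes had. Dsg2, a desmosomal cadherin gene beside Ttr, had 66.13, 83.47 and 62.67 in Arid1a d/d mice, against 27.45, 24.77 and 27.04 in Arid1a f/f mice (log2 fold change 1.41, adjusted p = 0.00183, limma), the opposite direction to Ttr. Ube2c, a gene of mitosis near Wfdc3, had 116.37, 172.35 and 138.45 in Arid1a d/d mice, against 96.42, 61.91 and 70.07 in Arid1a f/f mice (0.91, adjusted p = 0.0333, limma). Its call was lost without the second or the third array of either genotype (0.76 to 1.09 over the 6 omissions) and with the floor (adjusted p = 0.0657, limma).

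Leaving out each array in turn kept all 8 genes lower in Arid1a d/d mice. That was fixed in advance, because the genotypes did not overlap at the brightest probe set of any of them. The counts of probe sets and genes past the fit moved with single arrays: Ovgp1 dropped out of them without the first or the second Arid1a d/d array or the third Arid1a f/f array, 1 Ttr probe set dropped out without the third Arid1a d/d array and 1 without any 1 array, while Foxa2 and the brightest Prss29 probe set came in without the first Arid1a f/f array. As with the counts themselves, nothing is read from this. Over the 6 fits the log2 fold change ran from -6.88 to -5.98 for Spink1, from -2.76 to -2.31 for Cxcl15, from -1.81 to -1.60 for Wfdc3, from -3.37 to -2.39 for Ttr and from -3.13 to -2.04 for Ovgp1.

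**Figure D5:**
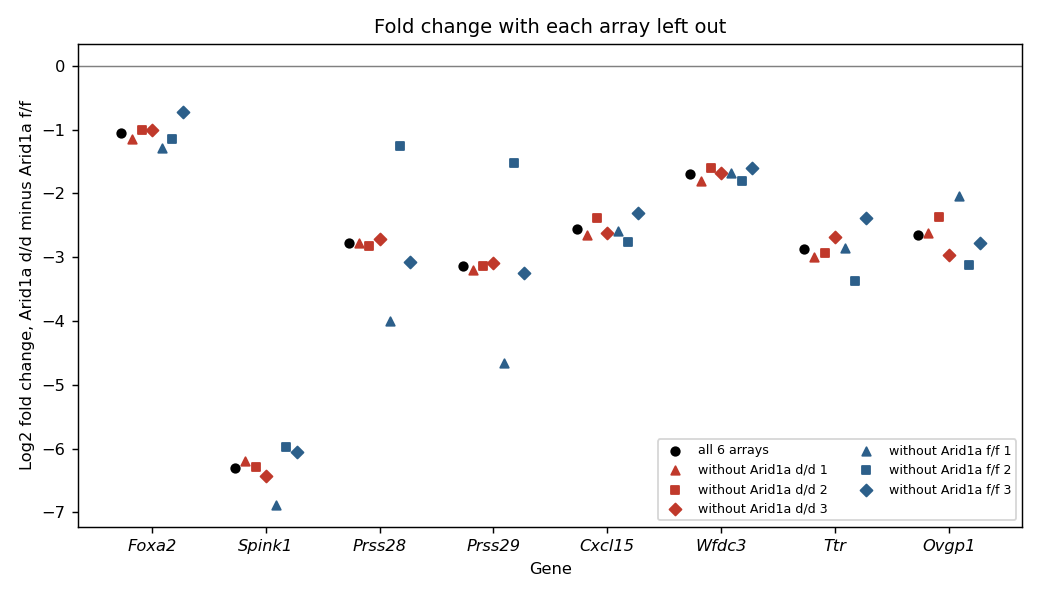
Log2 fold change (Arid1a d/d minus Arid1a f/f) of the brightest probe set of each gene with all 6 arrays (black) and without each array in turn (red, Arid1a d/d left out; blue, Arid1a f/f left out). Prss28 and Prss29 moved most, to -1.25 and -1.52 without the second Arid1a f/f array.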

How the data were processed

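Whole-uterus RNA collected at 3.5 dpc was read on Affymetrix mouse arrays, 1 per sample, 3 per genotype. Intensities as deposited by the authors had been through RMA (named without a version in the submitters' processing notes) and global scaling. The deposited intensities are linear (1.29 to 4479), so log2 was taken, and dim probe sets were kept. The methods' scaling target could not be found in the table, and the sources used here do not say how its values were rescaled.

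Of 45037 probe sets, 34945 name 1 gene in the platform annotation, 932 name several and were not named, and 9160 are unnamed here. Symbols were looked up through Entrez IDs in the GRCm38.p6 gene table, and 0 had to be updated. Each gene was read at its brightest probe set, by the mean of all 6 arrays. The comparison of genotypes used R 4.3.3 and limma 3.58.1, with lmFit, eBayes and two-sided tests adjusted after Benjamini and Hochberg across the whole table (threshold 0.05), and was checked on simulated data. Neighbouring genes came from the same gene table, and promoters from the RefSeq promoter table of GRCm38.p6, in which 6 of the 8 genes were used. They were aligned with Biopython 1.88 (local, match 1, mismatch -1, gap opening -3, gap extension -0.5).

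The 8 genes and the 17 gene lists were chosen with earlier results of these data known. The rule for naming genes in each list took up to 4 genes past the fit with the largest change, or 2 where none passed. Mlf1, Fgb, Ahsg, Pgk1 and Hprt, which it also picked and which were not past the fit, are not described. Foxa1, Foxa3, Sox17, Rbp4, Aif1, Adgre1, Nr4a1, Tpsb2, Tppp3, Cela1, Alb, Afp, Cela2a, Foxj1 and Pgr were named outside this rule, after their values were seen. Cldn3, Cldn4 and Ehf were named outside the rule as well. As alternatives, the following were tried: a replicate block, quantile normalization, median centring, eBayes with trend and robust options, leaving out dim probe sets, leaving out those able to read more than 1 transcript, a floor at the table median, the mean of a gene's probe sets, a ratio of arithmetic means, values relative to epithelial markers, the methods' t-test, other promoter windows and motifs, and leaving out each array.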

Additional observations from a re-analysis of the deposited data

How the results depend on the processing

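No alternative that gave a value turned the direction of any of the 8 genes, but several could not have done so. The genotypes did not overlap at the brightest probe sets, so leaving out 1 array, the floor and the ratio of arithmetic means could not turn it. The replicate block, the eBayes options and leaving out dim probe sets left these log2 fold changes as they were. Values relative to the epithelial markers could only lower them. With probe sets able to read more than 1 transcript left out, Ttr and Ovgp1 had no value. Of the 15 probe sets, 9 were past the fit, against 4 with a floor at the table median, 0 with the methods' t-test after Benjamini-Hochberg adjustment, 10 without dim probe sets and 7 to 10 when 1 array was left out. The median log2 fold change of the 8 genes was -2.71, against -2.38 with the floor, -2.28 as the mean of a gene's probe sets, -2.96 as a ratio of arithmetic means, -3.31 relative to the epithelial markers and -2.73 to -2.28 when 1 array was left out. Over all probe sets, 2147 were past the fit, against 578 to 1819 when 1 array was left out, and the methods' t-test gave 6702 unadjusted and 0 adjusted. Genes past the fit in the lists numbered 21, and 9 to 23 when 1 array was left out. Of the neighbours 2 were past it, 1 with the floor, and 1 to 3 when 1 array was left out. Forkhead motifs were found in 1 gene, and in 0 within 100 bases of the start or with TGTTTAC alone. As the mean of its probe sets, the log2 fold change of Esr1 was reversed, at 0.087. Fits with 1 array fewer rest on fewer samples, and their counts also differed with the array that was left out. The cause of these and the other differences was not tested.

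The deviations of same-numbered arrays from the means of their genotypes had correlations of -0.01, 0.06 and 0.20 over 22429 probe sets. These do not show that the numbers pair the samples, and they cannot exclude it. With the replicate block, 2165 probe sets, 8 of the 15 probe sets and 25 genes in the lists were past the fit, and the neighbours' count was 2. Among the named genes, the block ended the calls of Esr1 (adjusted p = 0.0765, limma) and Ube2c (adjusted p = 0.0593, limma) and Kit passed the test (adjusted p = 0.00761, limma). With 3 arrays per genotype and no detection calls, folds of the genes that lie at background in Arid1a d/d mice are limited by that floor.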

Other observations

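Slc13a3, a dicarboxylate transporter gene, had 4.09, 3.81 and 4.07 in Arid1a d/d mice, against 4.55, 4.08 and 51.78 in Arid1a f/f mice. Coch, which encodes the secreted protein cochlin, had 2.84, 3.36 and 2.18 in Arid1a d/d mice, against 7.16, 36.46 and 20.84 in Arid1a f/f mice. Its Arid1a f/f arrays came in the same order as those of Prss28 and Prss29, lowest on the first and highest on the second, and its genotypes did not overlap (log2 fold change -2.68, adjusted p = 0.0210, limma). Slc26a7, an anion exchanger gene, had 26.17, 53.46 and 30.80 in Arid1a d/d mice, against 20.50, 152.20 and 69.20 in Arid1a f/f mice, also highest on the second Arid1a f/f array and lowest on the first, but its genotypes overlapped. These 3 genes were picked after their values were seen, among the 20 with the widest range over the Arid1a f/f arrays.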
